A study of Mus musculus with 18 samples.

Results

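Of 15964 genes that the probe sets name, 8 are the chemokine receptor genes described here: Ccr2, Ccr6, Ccr7, Ccr9, Cxcr3, Cxcr4, Cxcr5 and Cx3cr1. They were taken as every probe set on the Affymetrix U74A, U74B and U74C arrays whose platform annotation gives 1 of these symbols. That yielded 10 probe sets, 8 on U74A, 1 further probe set of Ccr9 on U74B and 1 further probe set of Cx3cr1 on U74C. The labels name 3 populations from mouse spleen, each with 2 separately prepared samples. IKDC are interferon-producing killer dendritic cells, PDC are plasmacytoid dendritic cells, and cDC are conventional dendritic cells, the submitters' control. The labels give no strain, age, treatment or sorting scheme for any of the groups. Each sample was hybridised to all 3 array types. Values are linear signal intensities, which the authors scaled to a target of 150 on every array.

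Chemokine receptors are G protein-coupled receptors that steer leukocytes along gradients of small secreted proteins, the chemokines. Each receptor reads a few ligands. Ccr2 responds to Ccl2 and its relatives and draws monocytes out of the bone marrow. Ccr6 responds to Ccl20 at mucosal surfaces, and Ccr7 to Ccl19 and Ccl21, which guide mature dendritic cells and T cells into the T cell zones of lymphoid organs. Ccr9 responds to Ccl25 of thymus and small intestine. Cxcr3 responds to the interferon-induced ligands Cxcl9, Cxcl10 and Cxcl11, Cxcr4 to Cxcl12, Cxcr5 to the B cell follicle chemokine Cxcl13, and Cx3cr1 to the membrane-bound ligand Cx3cl1.

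The labels were compared with marker genes, which bore out the plasmacytoid label and the killer part of the IKDC label. All 7 NK cell markers with a probe set rose in IKDC against cDC, with a summed signal of 44843 and 49151 in the IKDC samples against 2732 and 3578 in the cDC samples. All 7 plasmacytoid markers, each with a probe set, rose in PDC against cDC, and of 7 conventional dendritic cell markers 5 fell in IKDC and 4 in PDC. The conventional markers summed to 3430.8 and 3162.4 in IKDC and 10675.9 and 12648.4 in PDC, against 27087.4 and 26436.5 in cDC. These sums do not bear out the dendritic part of the IKDC label. Itgax was nearer, at 1249 and 1359 in IKDC against 1556 and 2614 in cDC. Markers of other cells were also present: summed erythroid marker signals were 14281 and 16889 in IKDC and 22297 and 9495 in PDC, against 760 and 1773 in cDC. The median signal per array lay between 51.7 and 87.3. Gapdh control probe sets at the 3' end gave 6.0 times the signal of those at the 5' end in PDC replicate 1, a measure of RNA shortening taken on U74A, and 3.19 to 4.74 times in the other samples. A signal of 60 was the minimum for testing, on at least 2 of the 6 arrays of a type. Probe sets for bacterial RNA that was not added reached 45.2 on U74A, 122.7 on U74B and 148.7 on U74C. Signals below these heights are therefore close to background. The data come from whole cell populations, so fewer cells of a type and less RNA per cell cannot be told apart.

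Ccr9 and Cxcr3 were the only members that passed in any comparison, Ccr9 only in those with PDC. Of the 9 member probe sets tested, 3 rose in PDC against cDC, both of Ccr9 and that of Cxcr3, and none fell, against 1.73% of all 23285 tested probe sets that rose, 1.92% that fell and 3.65% in either direction. Between IKDC and cDC 1 of the 9 passed, that of Cxcr3, which rose, against 5.60% of all tested probe sets that passed, 2.68% higher and 2.92% lower. Between IKDC and PDC the same 3 probe sets of Ccr9 and Cxcr3 were lower in IKDC, against 4.45% of all tested probe sets that passed, 2.06% higher and 2.39% lower. In both counts of 3, the Ccr9 probe set on U74A reached the signal minimum only through PDC and had to differ. Without it, 2 of 8 passed in each, Ccr9 on U74B and Cxcr3. Because the 3 comparisons share samples, these counts are not independent. The members were also chosen with earlier results of these data known, so the counts only describe them. Passing means a limma p under 0.05 after Benjamini-Hochberg adjustment over the 23285 probe sets. Differences are on the log2(signal + 16) scale, given with their SE.

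**Figure D1:**
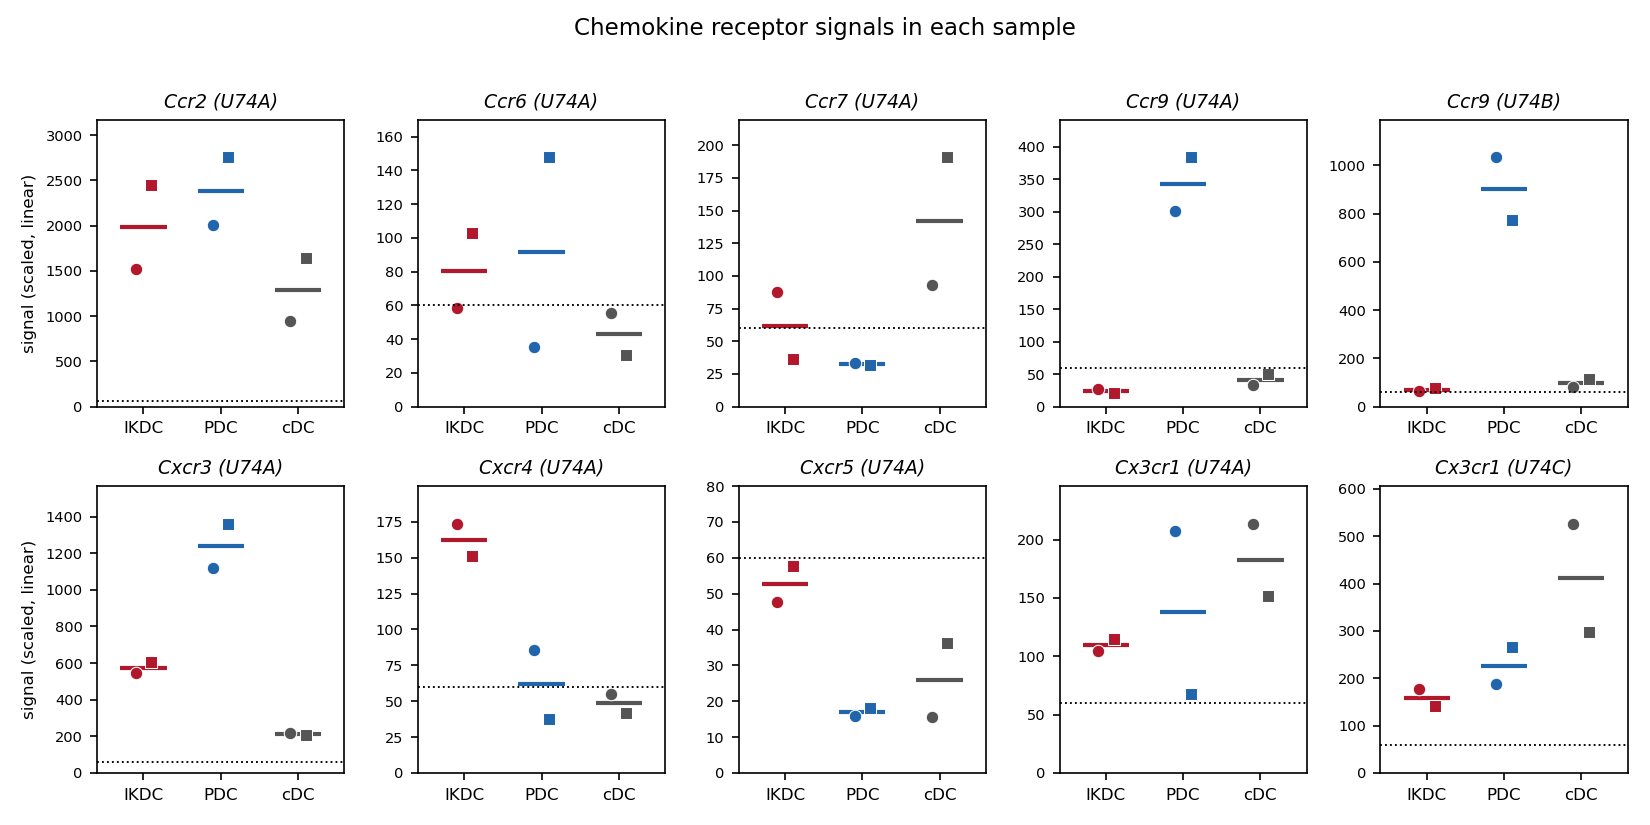
Signal (linear, scaled to a target of 150) of the 10 probe sets of the 8 receptor genes in IKDC, PDC and cDC, 1 panel per probe set with its own axis. Circles are replicate 1, squares replicate 2, bars the mean of the 2 samples, and the dotted line the signal minimum of 60. Ccr9 stood at 301 and 384 on U74A in PDC with all other samples under 60, Cxcr3 lay between PDC and cDC in IKDC, and Cxcr5 stayed under 60 in all 6 samples.

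Ccr9, the Ccl25 receptor, had its highest signals in PDC on both array types that measure it. Probe set 98323_at on U74A had signals of 26.5 and 20.3 in IKDC, 301 and 384 in PDC, and 32.5 and 50.2 in cDC. Both PDC samples lay far above the other 4, which were all under 60. The signal was at least 5.66-fold higher in PDC than the minimum of 60, both against cDC (2.65 ± 0.37 log2 units, limma adjusted p = 0.00202) and against IKDC (IKDC minus PDC -3.18 ± 0.37, limma adjusted p = 0.00041). The second probe set, 163829_r_at on U74B, reached 60 on all 6 arrays. It had 65.0 and 75.8 in IKDC, 1034 and 773 in PDC, and 83.0 and 113 in cDC. PDC again did not overlap the others, with a difference of 3.01 ± 0.33 log2 units between PDC and cDC (limma adjusted p = 0.000845) and of -3.40 ± 0.33 between IKDC and PDC (limma adjusted p = 0.000312). All 4 signals outside PDC lay under the 122.7 that bacterial probe sets reached on U74B, and the size of these differences is not secure.

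The Ccr9 probe set on U74B, which reached the minimum in every sample, passed in both comparisons with PDC under all 16 alternative settings. The order of replicates differed between the Ccr9 probe sets: PDC replicate 2 was the higher of the PDC samples on U74A and PDC replicate 1 on U74B. Between IKDC and cDC neither probe set passed, with differences of -0.53 on U74A (95% interval -1.34 to 0.28) and -0.39 on U74B (-1.13 to 0.35). On both array types each IKDC sample was below each cDC sample, but all of these signals were near background. The summed plasmacytoid markers were 3189 and 2982 in IKDC, 33854 and 31350 in PDC, and 5091 and 4516 in cDC, highest in PDC as Ccr9 was.

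Cxcr3, the receptor for Cxcl9, Cxcl10 and Cxcl11 that is known from effector T cells and NK cells, was graded over the 3 populations. Probe set 94173_at on U74A had 545 and 604 in IKDC, 1117 and 1362 in PDC, and 218 and 209 in cDC. The means were 574 ± 41.6 in IKDC, 1239 ± 173 in PDC and 213 ± 6.65 in cDC (SD, n = 2 each). No population overlapped another, and the signals of all 6 samples were well above the 45.2 of bacterial probe sets. Cxcr3 rose by 2.45 ± 0.27 log2 units in PDC against cDC (limma adjusted p = 4e-04), a call that stood under all 16 alternatives. It rose by 1.36 ± 0.27 in IKDC against cDC (limma adjusted p = 0.0111), and the difference between IKDC and PDC was -1.08 ± 0.27 (limma adjusted p = 0.0423).

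The Cxcr3 calls between IKDC and cDC and between IKDC and PDC did not stand in all fits without 1 sample, while the differences kept their direction. Between IKDC and PDC the difference was -1.23 to -0.94 in those fits. The call between IKDC and cDC ended without IKDC replicate 1 (limma adjusted p = 0.0805), IKDC replicate 2 (0.126), cDC replicate 1 (0.0621) or cDC replicate 2 (0.0731), while the difference stayed at 1.29 to 1.43. The call between IKDC and PDC ended without any 1 of the 6 samples. Its limma adjusted p was 0.308 without IKDC replicate 1, 0.22 without IKDC replicate 2, 0.0564 without PDC replicate 1, 0.124 without PDC replicate 2, 0.0621 without cDC replicate 1 and 0.0617 without cDC replicate 2. It also ended with only the 2 groups in the fit (limma adjusted p = 0.0548) and without the intensity trend (0.102).

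Markers of other cells known to carry Cxcr3 were also measured. Of 8 T cell markers 2 rose in IKDC and 1 in PDC against cDC, with summed signals of 1447 and 948 in IKDC and 1234 and 1330 in PDC, against 867 and 647 in cDC. In PDC replicate 2, which had the highest Cxcr3 signal, the T cell markers ran from Cd3g at 5.2 to Cd4, which plasmacytoid cells also carry, at 770. Of 7 NK cell markers 1 rose in PDC against cDC, and their summed signals were 4720 and 3511 in PDC, against 2732 and 3578 in cDC. The erythroid markers given above were also higher in IKDC and PDC than in cDC. The part of T cell, NK cell and erythroid markers in the Cxcr3 differences was not tested.

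**Figure D2:**
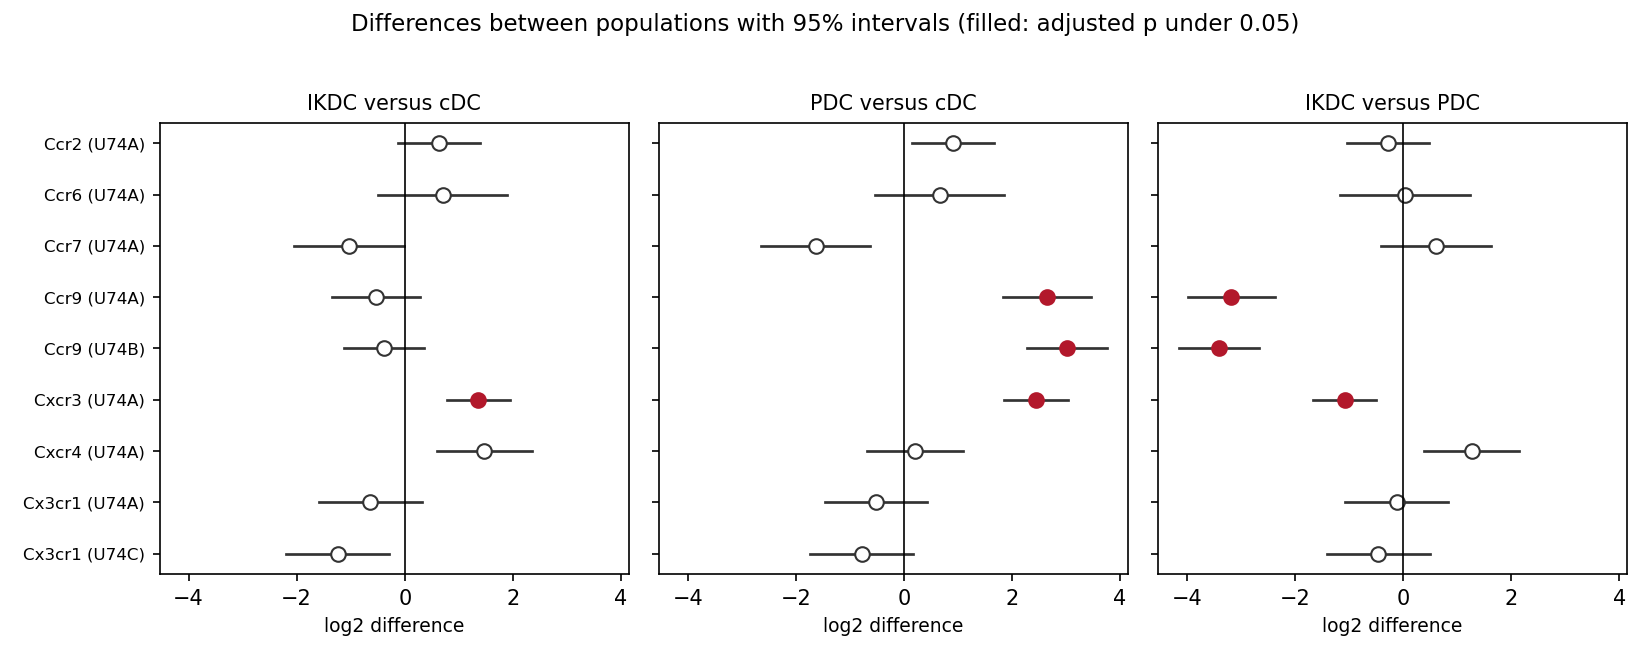
Log2 difference, on the log2(signal + 16) scale, of the 9 tested probe sets in IKDC versus cDC, PDC versus cDC and IKDC versus PDC, first-named minus second-named. Circles are estimates, lines 95% intervals, and filled circles mark an adjusted p under 0.05. Both Ccr9 probe sets and Cxcr3 are filled in the 2 comparisons with PDC, and Cxcr3 alone in IKDC versus cDC.

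The promoters of Ccr9 and Cxcr3 are shown because these are the members that passed the test in PDC against cDC. Each window runs from 250 bases before to 50 bases after the start of the gene, read 5′ to 3′ on the gene's strand from the RefSeq table of build GRCm38.p6. That of Ccr9 is chr9:123766961-123767260 on the plus strand and that of Cxcr3 is chrX:101734098-101734397 on the minus strand. Capitals mark matches to the E-box letters CANNTG, the motif bound by E proteins such as Tcf4.
Ccr9: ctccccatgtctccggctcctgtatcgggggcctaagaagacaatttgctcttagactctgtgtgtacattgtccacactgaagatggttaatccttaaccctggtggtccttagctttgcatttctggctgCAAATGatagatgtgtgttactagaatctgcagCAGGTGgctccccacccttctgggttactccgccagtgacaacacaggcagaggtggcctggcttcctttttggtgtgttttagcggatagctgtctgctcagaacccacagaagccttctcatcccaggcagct
Cxcr3: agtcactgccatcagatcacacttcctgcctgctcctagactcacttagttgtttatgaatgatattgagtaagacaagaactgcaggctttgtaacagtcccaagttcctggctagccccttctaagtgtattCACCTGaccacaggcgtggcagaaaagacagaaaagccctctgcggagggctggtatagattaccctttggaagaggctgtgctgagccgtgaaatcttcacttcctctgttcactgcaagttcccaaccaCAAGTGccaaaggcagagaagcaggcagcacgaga

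Each window held 2 E-box matches. Of all 32851 promoter windows of this length 72.3% held at least 1, with a median of 1 match. Counted from the start of the gene, the E-box matches began at bases -118 and -85 in Ccr9 and at bases -116 and 16 in Cxcr3. On either strand, the letters GAGGAA, a core that ETS factors such as Spi-B can bind, matched at 0 places in Ccr9 and at 1 in Cxcr3 (28.3% of all windows). The Runx letters TGTGGT matched at 0 places in Ccr9 and 2 in Cxcr3 (16.8% of all windows), where the downstream match overlaps the second E-box. Each share in brackets counts windows with at least 1 match. The T-box letters GTGTGA matched at 0 places and 1 place (14.5% of all windows), and a pair of GAAA runs set 2 bases apart, as interferon regulatory factors bind, at 0 places in both (3.44%). Of the 8 members 6 have a window in that table.

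Genes with profiles like those of Ccr9 and Cxcr3 were sought on the same array type, among genes with a mean of at least 200 in some population, by the root mean square difference of centred log2 values over the 6 samples. For Ccr9 on U74A, out of 3009 genes, the nearest were Tmem229b (0.154 log2 units), the E protein gene Tcf4 (0.177) and Pnck (0.18), which encodes a calmodulin-dependent kinase. Tcf4 had 339 and 302 in IKDC, 2312 and 2918 in PDC, and 374 and 382 in cDC on that array type. For Ccr9 on U74B, out of 3058 genes, the nearest were Fam169b (0.257), Tubgcp5 (0.264), of the gamma-tubulin complex, and again Tcf4 (0.3), through another probe set. For Cxcr3 they were Ankrd28 (0.208), Dntt (0.267), which encodes the terminal transferase of antigen receptor rearrangement, and the protease gene Ctse (0.279). Dntt had 185 and 228 in IKDC, 662 and 709 in PDC, and 111 and 102 in cDC, in the same order as Cxcr3. With 6 samples in 3 groups, many genes share such a shape, and the distances describe these arrays only.

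**Figure D3:**
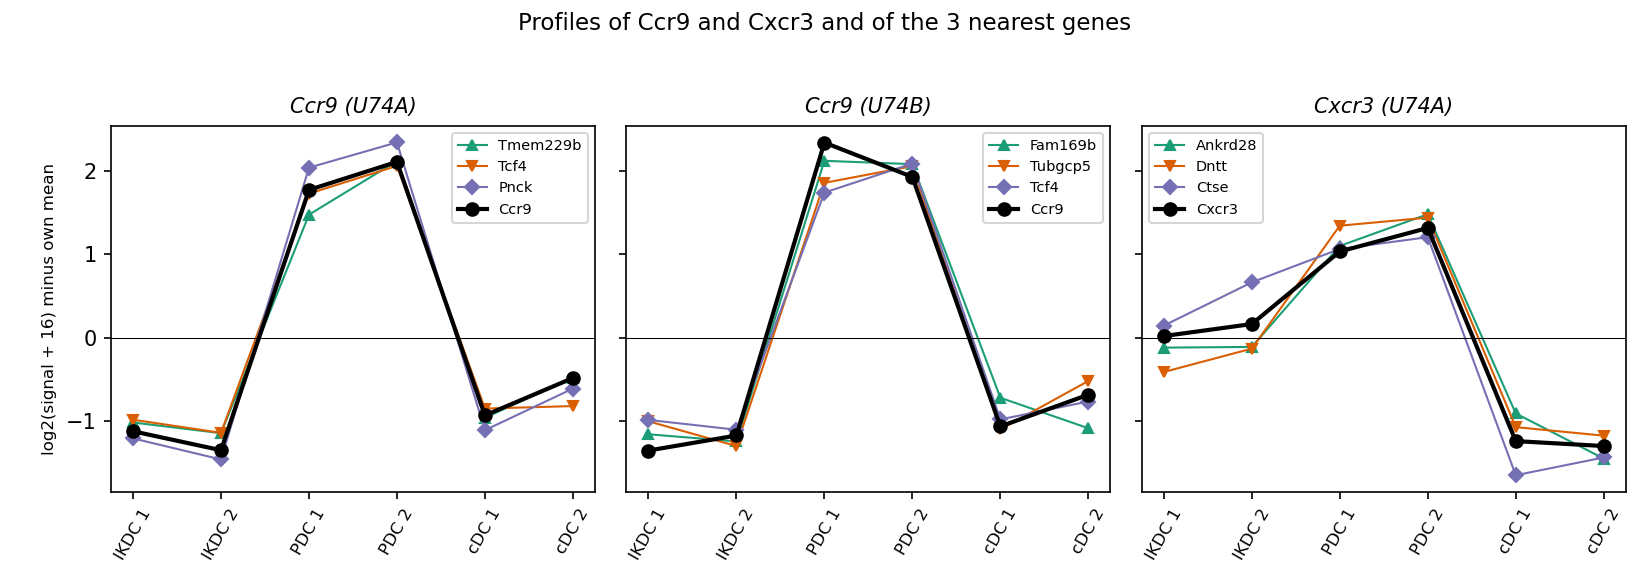
Centred log2(signal + 16) in the 6 samples, IKDC, PDC and cDC from left to right, for Ccr9 on U74A, Ccr9 on U74B and Cxcr3 on U74A (black) and the 3 nearest genes of each (coloured). Lines join the points of a gene for the eye only. The root mean square distance of Tcf4 from Ccr9 is 0.177 log2 units on U74A and 0.3 on U74B.

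Ccr2, the Ccl2 receptor, was well above background in all samples and did not pass in any comparison. Probe set 93397_at on U74A had 1517 and 2453 in IKDC, 2008 and 2757 in PDC, and 944 and 1641 in cDC. Replicate 2 was the higher sample in every population. PDC lay above cDC without overlap, while IKDC overlapped both. The difference was 0.91 ± 0.35 log2 units between PDC and cDC (95% interval 0.15 to 1.67, limma adjusted p = 0.232), 0.63 ± 0.35 between IKDC and cDC (-0.13 to 1.39) and -0.28 ± 0.35 between IKDC and PDC (-1.04 to 0.48). Monocytes are known for Ccr2. The 6 monocyte and macrophage markers summed to 497 and 339 in IKDC and 1060 and 721 in PDC, against 4032 and 4190 in cDC, and their part in the Ccr2 signals was not tested.

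Cxcr4, the Cxcl12 receptor that holds cells in bone marrow, had its highest signals in IKDC, close to the threshold. Probe set 102794_at on U74A had 174 and 151 in IKDC, 85.9 and 37.5 in PDC, and 55.0 and 41.9 in cDC. Both IKDC samples lay above the other 4. Besides them only PDC replicate 1 reached 60. Without the IKDC samples Cxcr4 would not have been tested, so a higher signal in IKDC was partly built into its being tested. The difference was 1.47 ± 0.40 log2 units between IKDC and cDC (95% interval 0.59 to 2.36, limma adjusted p = 0.0585), with a signal at least 2.7-fold higher than the minimum of 60. Between IKDC and PDC it was 1.27 ± 0.40 (0.39 to 2.15, limma adjusted p = 0.128). Neither passed. The first passed with only the 2 groups (limma adjusted p = 0.0166), a pseudocount of 64 (0.0397), quantile normalization (0.0425) and adjustment within the array type (0.0338). It did not pass at a pseudocount of 1 (0.0807), without a filter (0.106), after median centring (0.0575) or without the intensity trend (0.0609). With 1 sample left out the first difference was 1.33 to 1.62 log2 units. The fit with the replicate number as a block is given further below. The second passed without PDC replicate 1 (limma adjusted p = 0.0363). PDC and cDC overlapped, at 0.20 ± 0.40 log2 units (-0.68 to 1.09).

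Ccr7, the receptor for lymphoid tissue entry, was highest in cDC, with PDC under the 45.2 of bacterial probe sets. Probe set 104443_at on U74A had 87.4 and 36.4 in IKDC, 33.0 and 31.9 in PDC, and 93.2 and 191 in cDC. All 3 values above 60 came from cDC and from IKDC replicate 1. Without the cDC samples Ccr7 would not have been tested, so a higher signal in cDC was partly built into its being tested. The PDC samples lay below both cDC samples, at -1.63 ± 0.46 log2 units (95% interval -2.65 to -0.62, limma adjusted p = 0.0915), and the cDC signal was at least 2.22-fold higher than the minimum. Against cDC, IKDC differed by -1.03 ± 0.46 (-2.05 to -0.01, limma adjusted p = 0.257), and against PDC by 0.60 ± 0.46 (-0.41 to 1.62). None of these passed.

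Cx3cr1, the fractalkine receptor known from monocytes and some dendritic cells, was measured by a probe set on each of 2 array types. On U74C, 130459_at had 177 and 142 in IKDC, 188 and 265 in PDC, and 527 and 297 in cDC. There the populations did not overlap, in the order cDC, PDC, IKDC, but none of the differences passed. Bacterial probe sets reached 148.7 on U74C, above IKDC replicate 2 and not far under IKDC replicate 1 and PDC replicate 1. The order of IKDC and PDC is therefore not secure. IKDC differed from cDC by -1.24 ± 0.43 log2 units (95% interval -2.19 to -0.30, limma adjusted p = 0.139) and PDC from cDC by -0.78 ± 0.43 (-1.73 to 0.16). On U74A, 95335_at had 105 and 115 in IKDC, 208 and 67.7 in PDC, and 214 and 152 in cDC. IKDC again lay below cDC (-0.64 ± 0.43, -1.59 to 0.31), while the PDC samples spanned nearly the whole range. The PDC replicate with the higher signal differed between the probe sets, being replicate 1 on U74A and replicate 2 on U74C. Monocyte and macrophage markers had the same order of populations, with 4 of 6 lower in IKDC and 3 lower in PDC than in cDC, and their part in the Cx3cr1 signals was not tested.

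Ccr6 and Cxcr5 are receptors known from B cells. Cxcr5 was near background in all samples, and Ccr6 in all but replicate 2 of IKDC and of PDC. Ccr6 (99899_at, U74A) had 58.2 and 103 in IKDC, 35.5 and 148 in PDC, and 55.7 and 30.8 in cDC. It reached 60 in replicate 2 of IKDC and of PDC only. Its differences were 0.70 ± 0.55 log2 units in IKDC against cDC (95% interval -0.50 to 1.90), 0.67 ± 0.55 in PDC against cDC (-0.53 to 1.86) and 0.03 ± 0.55 in IKDC against PDC (-1.17 to 1.23), and none passed. Cxcr5 (99841_at, U74A) was not tested, with 47.6 and 57.8 in IKDC, 15.9 and 18.0 in PDC, and 15.7 and 36.3 in cDC. Both IKDC values were the highest of the 6 and still under 60, so no fold is given. B cell markers, 9 with a probe set, summed to 2310 and 942 in IKDC, 1283 and 716 in PDC, and 1040 and 918 in cDC. Their part in the Ccr6 and Cxcr5 signals was not tested.

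On mouse chromosome 9, Ccr9, Ccr2 and other receptor genes lie in a single stretch, in the order Ccr9, Fyco1, Cxcr6, Xcr1, Ccr1, Ccr1l1, Ccr3 and Ccr2 by the GRCm38.p6 gene table. Neighbours differed in which population was highest. Xcr1, the receptor of cross-presenting dendritic cells, had 48.1 and 95.7 in IKDC and 50.9 and 99.3 in PDC, against 299 and 239 in cDC. Fyco1, which is no receptor and lies next to Ccr9, had 140 and 138 in IKDC, 282 and 331 in PDC, and 200 and 293 in cDC. Ccr1 had 24 and 16 in IKDC, 81.0 and 10.7 in PDC, and 101 and 81.2 in cDC. Ccr3 and Ccr1l1 were under 60 on all 6 arrays. The PDC samples of Ccr9 were thus far above all others, in a stretch where Xcr1 was highest in cDC and Ccr2 was present throughout. Cx3cr1 lies elsewhere on the chromosome, next to Ccr8, which was at 6.3 to 21.6 over the 6 samples.

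**Figure D4:**
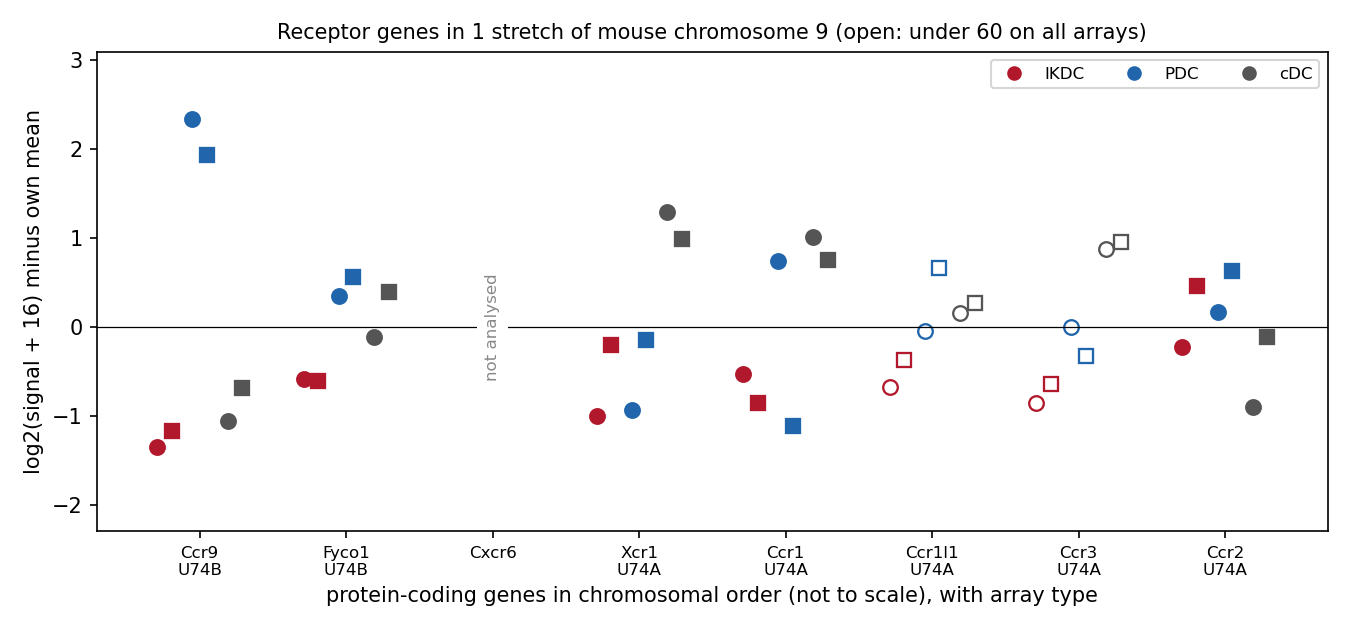
Centred log2(signal + 16), each gene minus its own mean over the 6 samples, for the genes from Ccr9 to Ccr2 on mouse chromosome 9, in gene order without distances. Circles are replicate 1 and squares replicate 2 of IKDC, PDC and cDC, and open symbols mark Ccr1l1 and Ccr3, which were under 60 on all arrays. Ccr9 stands out in PDC, and Xcr1 in cDC.

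The remaining chemokine receptors were mostly low. Of 16 further receptor genes 12 had a probe set and 5 were tested. None rose in either population, and 2 fell in both IKDC and PDC against cDC: Xcr1 and Ccrl2, which encodes an atypical receptor that presents the chemoattractant chemerin. Among all tested probe sets 2.92% fell in IKDC and 1.92% in PDC against cDC. Ccrl2 had 165 and 101 in IKDC and 108 and 61.1 in PDC, against 438 and 397 in cDC. Its difference from cDC was -1.57 ± 0.35 in IKDC (limma adjusted p = 0.0222) and -2.15 ± 0.35 in PDC (limma adjusted p = 0.00517). Xcr1 differed by -1.74 ± 0.39 in IKDC (limma adjusted p = 0.0248) and by -1.69 ± 0.39 in PDC (limma adjusted p = 0.0388). The median difference of the 5 was -1.57 in IKDC against cDC and -1.07 in PDC against cDC, with -0.01 over all tested probe sets in both. Between IKDC and PDC 0 of the 5 passed in limma, and 0 at an unadjusted p under 0.05. Each of these 4 calls ended without either cDC sample. In IKDC against cDC, that of Ccrl2 also ended without either IKDC sample and that of Xcr1 without IKDC replicate 1, and in PDC against cDC that of Xcr1 without PDC replicate 1. The Xcr1 call in PDC further ended at a pseudocount of 1, without a filter, after quantile normalization and without the intensity trend, at limma adjusted p-values of 0.0517 to 0.0666. Limma adjusted p-values in the fits without 1 sample that ended a call were 0.0523 to 0.249.

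Among the ligands of the 8 receptors 4 of 15 were tested. Cxcl9, a ligand of Cxcr3, had 10.3 and 3.3 in IKDC and 12 and 3.4 in PDC, against 317 and 318 in cDC. It was thus at least 5.28-fold lower in both, measured from the minimum of 60 (limma adjusted p = 0.000496 in IKDC and 0.000784 in PDC), in the populations where Cxcr3 was higher. Cxcl9 reached the minimum only through the cDC samples, so that a difference was built into its being tested. The other tested ligands, Ccl8, Cxcl11 and Cxcl12, did not pass against cDC. Thus 1 of 4 fell in each population, against 2.92% of all tested probe sets in IKDC and 1.92% in PDC. Between IKDC and PDC 0 of the 4 passed in limma. An unadjusted limma p under 0.05 was found for 1, Ccl8, against 3367 of all 23285 tested probe sets. Ccl8 reached the minimum only through the PDC samples, so that a difference from IKDC was built into its being tested. Ccl25, the ligand of Ccr9, was at 2.1 to 17.7 over the 6 samples and was not tested. The median difference of the 4 was -1 in IKDC and -0.40 in PDC against cDC, with -0.01 over all tested probe sets.

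Other receptors that move leukocytes included 2 of 7 tested genes that rose in IKDC against cDC, both for sphingosine 1-phosphate. Of the 7, 1 rose in PDC against cDC and 1 was higher in IKDC than in PDC. Over all tested probe sets 2.68%, 1.73% and 2.06% were higher in these comparisons. S1pr5, known for the exit of NK cells from lymphoid tissue, had 1381 and 1609 in IKDC, against 244 and 143 in PDC and 582 and 379 in cDC. Its differences were 2.89 ± 0.32 log2 units from PDC (limma adjusted p = 0.00059) and 1.63 ± 0.32 from cDC (limma adjusted p = 0.0153). The first stood under all 16 alternatives. The second ended without IKDC replicate 1 (limma adjusted p = 0.0683), IKDC replicate 2 (0.119) or cDC replicate 2 (0.131), and without the intensity trend (0.0723). S1pr4 reached the minimum only in IKDC and PDC samples, so that a difference from cDC was built into its being tested. It had 127 and 243 in IKDC and 72.5 and 126 in PDC, against 16.5 and 9.9 in cDC, with limma adjusted p = 0.00305 in IKDC and 0.0295 in PDC. Without IKDC replicate 2 the IKDC value was 0.0856, and the PDC call ended without any 1 of 5 samples, PDC replicate 1 being the exception, at 0.0509 to 0.166. The PDC call also ended at a pseudocount of 64 (0.0676), without a filter (0.0558) and with only the 2 groups (0.0826). The median difference of the 7 genes was 0.23 in IKDC and -0.27 in PDC against cDC, and 0.43 between IKDC and PDC. Over all tested probe sets it was -0.01, -0.01 and -0.02.

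Most genes that carry the receptor signal did not pass. Of 30 tested, 2 rose and 2 fell in IKDC against cDC, 1 rose and 4 fell in PDC against cDC, and 3 were higher and none lower in IKDC against PDC, leaving 26, 25 and 27 that did not pass. Over all tested probe sets the shares that passed were the 5.60%, 3.65% and 4.45% given above. The medians were 0.16, -0.48 and 0.22 log2 units in these comparisons, with -0.01, -0.01 and -0.02 over all tested probe sets. Grk3, a kinase that phosphorylates active G protein-coupled receptors, had 428 and 414 in IKDC and 701 and 756 in PDC, against 5992 and 11764 in cDC. It differed by -4.27 ± 0.32 in IKDC (limma adjusted p = 3.77e-05) and by -3.50 ± 0.32 in PDC (limma adjusted p = 0.00019). Rac2, the small GTPase of the leukocyte cytoskeleton, had 6299 and 6141 in IKDC and 5628 and 6270 in PDC, against 1494 and 1884 in cDC. It rose by 1.88 ± 0.27 in IKDC (limma adjusted p = 0.00143) and by 1.81 ± 0.27 in PDC (limma adjusted p = 0.00284). The Grk3 and Rac2 calls stood under all 16 alternatives.

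Arrb2, encoding the arrestin that uncouples and internalises these receptors, had 1127 and 1459 in IKDC, against 361 and 373 in PDC and 791 and 772 in cDC. Its difference of 1.76 ± 0.24 log2 units between IKDC and PDC passed (limma adjusted p = 0.0021) and stood under all 16 alternatives. A further Arrb2 probe set with means of 59.4 in IKDC and 69.4 in PDC did not pass. Rgs2, which shortens G protein signals, fell by 2 ± 0.31 log2 units in PDC against cDC (limma adjusted p = 0.00381), or with an adjusted p of 0.0521 without cDC replicate 2. Grk6 was also higher and Plcb2 lower in IKDC against cDC, Elmo1 and Arrb2 were lower in PDC against cDC, and Grk5 and Pik3r5 were higher in IKDC against PDC. Each of these 6 calls ended in some fits that left out 1 sample, and a further Grk5 probe set did not pass. Other settings ended calls as well. Over all 16 alternatives, Arrb2 in PDC against cDC and Pik3r5 passed in 7 each, Grk6 and Plcb2 in 11 each and Elmo1 in 12. Grk5 passed in 12 of 15.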

How the data were processed

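The 18 arrays measured total RNA of 6 samples, amplified in a pair of rounds and biotin-labelled, per the labels' protocols. Per the labels, GCOS 1.1.1 with default settings gave the deposited signal intensities, which the authors scaled to 150. MAS5 is named in the submitters' processing notes. No detection calls were used. The trimmed mean of each array (2% off each end) was 150.035 to 150.098. Groups and replicate numbers came from the sample titles. No source used here says whether a population's 2 samples came from different animals, so p-values measure the spread between these samples, part of which may be technical.

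Signals were taken as log2(signal + 16), which understates changes of low signals, and array types were fitted separately. The 198 control probe sets were left out. Of 36701 others, the 23285 that reached 60 on 2 or more of the 6 arrays were tested with limma 3.58.1 in R 4.3.3 (lmFit, then trended eBayes), the 3 populations sharing a model, and p-values were adjusted by Benjamini-Hochberg over all array types. The script was tested on simulated data. Folds called "at least" set the geometric mean of the brighter group, signals under 60 taken as 60, against 60. Symbols came from the platform annotation, updated through gene identifiers to a GRCm38.p6 table: 29131 probe sets had 1 symbol, 724 several and 6846 none listed; no probe set with several symbols named a member. List genes with several tested probe sets were represented by the brightest. Named genes were all members, list genes past the threshold by smallest adjusted p, and the 3 nearest profiles of each member probe set that passed with a mean of at least 200. The members and lists were chosen with earlier results of these data known. Alternatives were a pseudocount of 1 or 64, no filter or a filter at 200, quantile normalization, median centring, only the 2 groups, no intensity trend, adjustment within array types, each sample left out and the replicate number as a block. The number of arrays limits the precision.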

Additional observations from a re-analysis of the deposited data

How the results depend on the processing

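Of the 9 tested member probe sets, 1 passed between IKDC and cDC. That count was 2, with Cxcr4 added, at a pseudocount of 64, after quantile normalization, with only the 2 groups, with adjustment within array types and with the replicate block (Cxcr4 adjusted p = 0.025), and it ran from 0 to 2 when 1 sample was left out. In PDC against cDC 3 passed, 3 under every sample left out and 3 to 4 otherwise, the 4 with the replicate block, which added Ccr7 (adjusted p = 0.0463). Between IKDC and PDC 3 passed, or 2 to 3 under the alternatives, and the probe sets behind the count were not always the same. Without PDC replicate 1, Cxcr4 took the place of Cxcr3. Over all tested probe sets the count of calls was 1305 in IKDC against cDC, 849 in PDC against cDC and 1036 in IKDC against PDC. With 1 sample left out it was 593 to 1656, 327 to 719 and 493 to 869.

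Directions turned for differences that had not passed. With 1 sample left out, the log2 difference between PDC and cDC ran from -0.17 (without PDC replicate 2) to 1.5 for Ccr6, from -1.23 to 0.19 (without PDC replicate 2) for Cx3cr1 on U74A and from -0.26 (without PDC replicate 1) to 0.67 for Cxcr4. Between IKDC and PDC it ran from -0.63 to 0.06 (without IKDC replicate 1) for Ccr2, from -0.80 (without PDC replicate 1) to 0.87 for Ccr6, which was -0.31 without IKDC replicate 2 and -0.02 at a pseudocount of 64, and from -0.83 to 0.59 (without PDC replicate 1) for Cx3cr1 on U74A. No called difference changed direction. The cause of these changes was not tested.

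The replicate numbers are not stated to pair samples. The correlation of deviations between same-numbered samples was -0.086 to 0.235 over the 9 pairs of populations and array types. A filter at 200 left Ccr6, Ccr7, Cxcr4, S1pr4 and Grk5 untested, and Cxcr5 was tested only without a filter. At the minimum of 60, Cxcr4 would not have been tested without its IKDC samples, nor Ccr7 without its cDC samples. Differences of Cxcr4 in IKDC and of Ccr7 in cDC were thus partly built in. A fit without 1 sample leaves a population with a lone sample that is assumed to vary like the others. Signals near the bacterial probe sets set the limit for Cxcr5, for Ccr7 in PDC and for Ccr9 outside PDC. They also set it for Ccr6 outside replicate 2 of IKDC and of PDC, and for Cx3cr1 on U74C in IKDC.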

Other observations

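Several chemokine receptor and ligand genes of the lists had a probe set but stayed under the test's minimum of 60, and their values are given here without a test. Ccr3, a receptor known from eosinophils, had 5.3 and 8.6 in IKDC and 22.5 and 14.5 in PDC, against 54.3 and 58.5 in cDC. Ackr3, an atypical receptor for Cxcl12, had 18.0 and 30.7 in IKDC and 8.3 and 3.4 in PDC, against 8.5 and 3.8 in cDC. Cxcr2, known from neutrophils, had 19.2 and 24.6 in IKDC and 50.0 and 20.5 in PDC, against 7.0 and 24.2 in cDC. Ccr4 ranged from 8.0 to 35.7 and Ccr8 from 6.3 to 21.6 over the 6 samples. Cxcl13, the Cxcr5 ligand, and Ccl7, a Ccr2 ligand, were highest in PDC replicate 1, at 50.7 and 52.4, with 1.8 and 4.9 in PDC replicate 2.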
